A study of Mus musculus with 3 samples.

Results

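The EGF family ligands and receptors were taken as 9 named genes of the 22706 genes in the files of the mouse C2C12 line. They are the ligands Areg, Ereg, Hbegf, Tgfa, Btc and Nrg1 and the receptors Egfr, Erbb2 and Erbb3. All 9 were found by symbol. Polyadenylated RNA of 3 libraries was sequenced, with 1 library in each group, so the differences have no replicate check and no test was run.

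C2C12 is an established mesenchymal precursor line that can form muscle or, with BMP2, bone-like cells. The library labelled shKSRP came from cells transfected with a short hairpin against KSRP, a protein encoded by Khsrp that binds AU-rich elements in mRNA and takes part in its decay, and kept in growth medium with 20% fetal bovine serum. The BMP2 library came from mock-transfected cells labelled as differentiation medium plus BMP2, a bone morphogenetic protein, and one of its labels adds 1d. Per the labels' protocols that medium has 2% horse serum and BMP2 is given at 100 to 300 ng/ml. The mock library is from mock-transfected cells that had no added agent and stayed in growth medium with 20% fetal bovine serum. The BMP2 library thus differs from mock in both medium and agent, whose parts cannot be told apart. The sources used here do not say whether the transfected cells were a clone or a pool.

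Ligands of this family are made as precursors in the cell membrane and are set free by metalloproteases such as ADAM17 and ADAM10. Areg, Ereg, Hbegf, Tgfa and Btc encode ligands of the EGF receptor, and Nrg1 encodes neuregulin 1, a ligand of ERBB3 and ERBB4. Bound receptors pair and signal through RAS and ERK, PI3 kinase and other routes, and ERBB2, which has no ligand of its own, is the preferred partner of the others. In muscle, neuregulin from nerve is known for its part in forming muscle spindles.

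The Areg promoter and several 3′ UTR stretches are shown because Areg had the largest differences in FPKM from mock among the 9 genes and because KSRP is known for binding AU-rich elements. Promoters are the 250 bases before the gene's start in the RefSeq table of GRCm38.p6, which holds 5 of the 9 genes. They are printed 5′ to 3′ on the gene's strand, for Areg chr5:91139349-91139598 (plus), for Egfr chr11:16751953-16752202 (plus) and for Erbb2 chr11:98412234-98412483 (plus). Capitals mark matches on either strand to TGACGTCA (the cAMP response element), TATAAA (the TATA box), GGGCGG (the GC box), TGACTCA (the AP-1 motif) or GGAATG (a TEAD motif).
Areg: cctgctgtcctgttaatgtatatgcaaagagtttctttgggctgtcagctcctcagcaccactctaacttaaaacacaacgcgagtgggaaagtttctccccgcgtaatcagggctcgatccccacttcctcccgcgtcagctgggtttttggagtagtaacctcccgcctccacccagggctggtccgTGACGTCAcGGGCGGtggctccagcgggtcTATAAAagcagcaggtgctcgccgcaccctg
Egfr: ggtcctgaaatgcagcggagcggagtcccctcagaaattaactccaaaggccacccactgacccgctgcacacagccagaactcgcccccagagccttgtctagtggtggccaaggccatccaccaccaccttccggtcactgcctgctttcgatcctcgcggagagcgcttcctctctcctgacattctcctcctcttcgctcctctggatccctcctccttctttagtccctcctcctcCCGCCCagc
Erbb2: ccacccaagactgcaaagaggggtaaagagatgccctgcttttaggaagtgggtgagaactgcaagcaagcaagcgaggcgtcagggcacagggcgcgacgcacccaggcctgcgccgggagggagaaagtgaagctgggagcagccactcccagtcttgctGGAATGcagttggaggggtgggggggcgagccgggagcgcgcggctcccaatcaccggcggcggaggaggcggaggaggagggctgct
The Areg window held a cAMP response element at -61 to -54, a GC box at -52 to -47 and a TATA box at -31 to -26 from the start, with no overlap among them. Of 32851 promoter windows of this length, 1.55% held TGACGTCA, 12.4% TATAAA, 32.7% GGGCGG, 4.46% TGACTCA and 12.6% GGAATG. The Egfr window held a GC box on the opposite strand at -9 to -4, and the Erbb2 window held GGAATG at -88 to -83. The Tgfa window held 2 GC boxes, and the Btc window held none of these letters.

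The AU-rich windows are 30 bases of the annotated 3′ UTR (GENCODE M21, GRCm38), with each ATTTA pentamer in capitals. They lie at chr5:91148371-91148400 (plus) for Areg, chr5:91093565-91093594 (plus) for Ereg, chr8:31814777-31814806 (minus) for Nrg1 and chr11:16916493-16916522 (plus) for Egfr.
Areg: aATTTATTTAatATTTAagtgttATTTAtt
Ereg: tgtatgagttgttgtcagtttttATTTAtt
Nrg1: taacatattttcctttattATTTAtATTTA
Egfr: actttttttattagctATTTActcaATTTA
The Areg 3′ UTR of 253 nt held 4 ATTTA pentamers, all of them within the window shown. Its 15.81 pentamers per kb was above that of 99.6% of 19278 annotated 3′ UTRs, whose median was 1.1 per kb. Ereg had 9 pentamers in 3501 nt (2.57 per kb), Hbegf 4 in 1456 nt (2.75 per kb) and Nrg1 9 in 3477 nt (2.59 per kb). Egfr had 12 in 6303 nt (1.9 per kb), and Erbb2 had none in 1048 nt. That Egfr 3′ UTR is longer than the whole 5965 nt Egfr transcript measured here, so it is not the 3′ UTR measured. The Nrg1 3′ UTR is that of another RefSeq transcript than the one measured. The longer motif TTATTTATT, found in 6.75% of the 3′ UTRs, was present once each in those of Areg, Ereg, Tgfa and Erbb3. These matches describe the annotated sequence and were not tested as sites.

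Levels are FPKM, a fragment count divided by transcript length and by the library's mapped fragments, and ± is the distance to the upper bound of the deposited 95% interval, combined over a gene's transcripts as a root of summed squares. It covers counting and assignment error within a library and not the spread between cultures. The intervals correspond to about 68.5 M (mega) fragments in the library labelled shKSRP, 60.4 M in the BMP2 library and 62.1 M in mock. Log2 ratios were taken after adding 1 to each FPKM, which shrinks the change of low genes. Genes past a log2 ratio of 1 in either direction (2-fold) are called higher or lower. Calls were made over the 11462 genes with at least 1 FPKM in a library.

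Khsrp, the gene the hairpin is labelled against, had 28.4 ± 0.64 FPKM in the library labelled shKSRP, 27.1 ± 0.67 FPKM in the BMP2 library and 31.4 ± 0.85 FPKM in mock. Its level in the library labelled shKSRP was thus 90.6% of mock, above the 86.5% of mock in the BMP2 library. The mock value is the sum of the RefSeq transcript (15.5 ± 0.6 FPKM) and an assembled one (15.9 ± 0.6 FPKM), while the other libraries hold the RefSeq transcript alone, so on that transcript by itself mock is the lowest. The mRNA therefore does not bear out the label, KSRP protein was not measured, and each direction below is that of the library so labelled. The 8 myoblast markers summed to 505 FPKM in the library labelled shKSRP, 353 FPKM in the BMP2 library and 551 FPKM in mock, with none listed at 0 and Mef2c under 1 FPKM. Of 7 markers compared with mock, 1 was called higher and 0 lower in the library labelled shKSRP, and 2 lower and 0 higher in the BMP2 library. Myf5 had 48.4 ± 1.2 FPKM in the library labelled shKSRP against 7.75 ± 0.5 FPKM in mock, Cdh15 had 5.02 ± 0.34 FPKM in the BMP2 library against 38.3 ± 0.93 FPKM in mock, and Itga7 had 35.9 ± 0.76 FPKM in the BMP2 library against 90.1 ± 1.2 FPKM in mock. The 6 matched blood and endothelial markers summed to at most 0.109 FPKM and the 7 Schwann and glial markers to 1.48 to 2.35 FPKM, with Sox10 listed at 0 in all 3. Of the 8 epithelial markers, 7 were below 1 FPKM in every library. Krt14, which shares its locus with another gene, had 18.4 ± 1 FPKM in the library labelled shKSRP, 264 ± 3.3 FPKM in the BMP2 library and 114 ± 2.7 FPKM in mock. The part of these cell-type markers in the results below was not tested. In bulk RNA, fewer cells of a type and less RNA per cell cannot be told apart.

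The ligands differed most from mock. In the library labelled shKSRP, 4 of the 5 ligands compared were called lower than in mock, and no receptor was called in either direction. Over the family, 7 of the 9 genes passed the filter on low values, and Tgfa and Erbb3 did not. Those 4 of 7 stand beside 12.9% of all genes called lower, the 0 of 7 called higher beside 11.0%, and the 4 called in either direction beside 24.0%. In the BMP2 library, 2 of the 7 (Areg and Ereg) were called lower than in mock, beside 8.95% of all genes, and 0 of 7 were called higher, beside 9.21% (18.2% in either direction). Both comparisons use the same mock library, so a value peculiar to mock enters both. The 9 genes were chosen with earlier results of these data known, so these counts are no independent check.

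**Figure D1:**
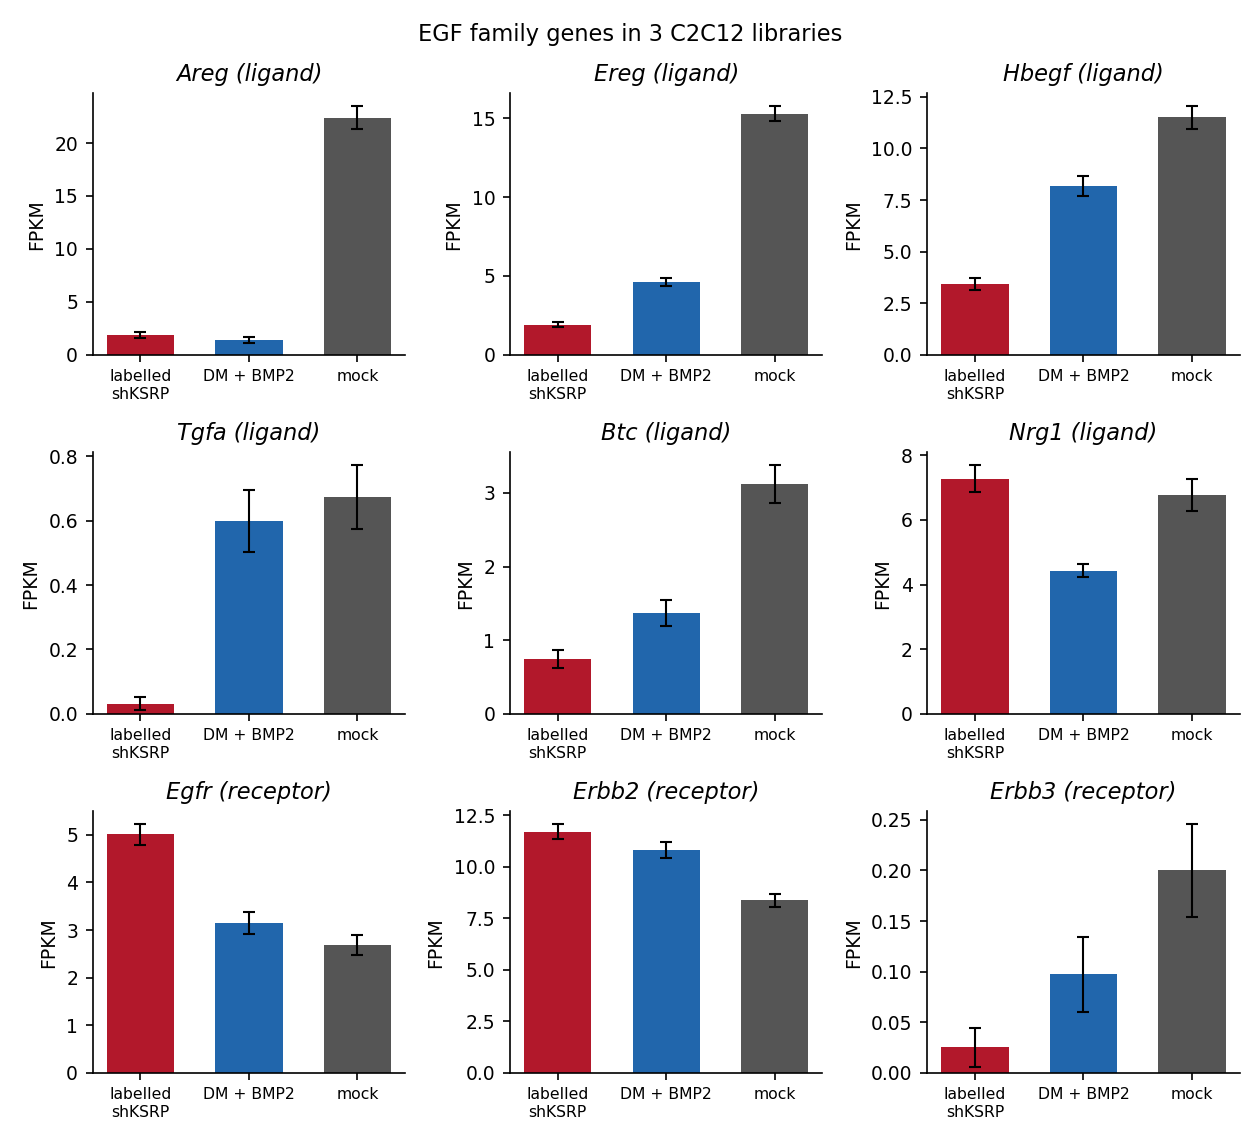
FPKM of each of the 9 genes (a panel each, linear axis from 0) in the library labelled shKSRP, the BMP2 library and mock, with bars for the half-width of the deposited 95% interval. Areg stands at 1.87, 1.43 and 22.4 FPKM, and Egfr at 5.01, 3.14 and 2.68 FPKM.

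Areg encodes amphiregulin, a ligand of EGFR (chr5:91568641-91577458 in mm9, plus strand, 6 exons). It had 1.87 ± 0.32 FPKM in the library labelled shKSRP, 1.43 ± 0.29 FPKM in the BMP2 library and 22.4 ± 1.1 FPKM in mock, from about 153, 103 and 1666 fragments. Mock was high, and the intervals of the other two libraries overlapped. The library labelled shKSRP had 8.35% of the mock level (log2 ratio -3.03 ± 0.17), and the BMP2 library had 6.37% (-3.27 ± 0.19). These ranked 190th and 108th from the lowest of the 11462 genes. The log2 ratio of the library labelled shKSRP to the BMP2 library was 0.24 ± 0.24.

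Ereg encodes epiregulin, a ligand of EGFR and ERBB4 (chr5:91503643-91522675 in mm9, plus strand, 5 exons). It had 1.89 ± 0.16 FPKM in the library labelled shKSRP, 4.62 ± 0.27 FPKM in the BMP2 library and 15.3 ± 0.48 FPKM in mock. The 3 intervals did not overlap, with the library labelled shKSRP lowest. The log2 ratio to mock was -2.49 ± 0.09 in the library labelled shKSRP (12.4% of mock) and -1.53 ± 0.08 in the BMP2 one (30.3% of mock). Between the library labelled shKSRP and the BMP2 library it was -0.96 ± 0.11, just short of the call.

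Hbegf encodes heparin-binding EGF-like growth factor, a ligand of EGFR and ERBB4 (chr18:36664581-36675459 in mm9, minus strand, 6 exons). It had 3.41 ± 0.29 FPKM in the library labelled shKSRP, 8.19 ± 0.48 FPKM in the BMP2 library and 11.5 ± 0.56 FPKM in mock. The order was that of Ereg, with the BMP2 library nearer to mock. Against mock, the library labelled shKSRP had a log2 ratio of -1.5 ± 0.12 and the BMP2 library one of -0.44 ± 0.10, which was not called. Of the 7 genes compared, Hbegf alone was called between the library labelled shKSRP and the BMP2 library (lower, -1.06 ± 0.12), beside 8.65% of all genes called lower there, 6.06% called higher and 14.7% in either direction. With the trend over transcript length taken out, Ereg was called there in place of Hbegf.

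Btc encodes betacellulin, a ligand of EGFR and ERBB4 (chr5:91786287-91832020 in mm9, minus strand, 6 exons). It had 0.745 ± 0.12 FPKM in the library labelled shKSRP, 1.37 ± 0.18 FPKM in the BMP2 library and 3.12 ± 0.26 FPKM in mock. No intervals overlapped. Against mock, the library labelled shKSRP had a log2 ratio of -1.24 ± 0.14 and the BMP2 library one of -0.80 ± 0.14, where the level was 44% of mock and the added 1 FPKM kept it short of a call. At a pseudocount of 5 FPKM the ratio of the library labelled shKSRP to mock was -0.50 for Btc and -0.97 for Hbegf, which ends both calls. Areg, Ereg and Btc lie on chromosome 5 and share no Cufflinks locus with one another.

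Tgfa encodes transforming growth factor alpha, a ligand of EGFR (chr6:86145245-86225443 in mm9, plus strand). It had 0.0306 ± 0.02 FPKM in the library labelled shKSRP, 0.6 ± 0.096 FPKM in the BMP2 library and 0.673 ± 0.1 FPKM in mock, from about 9, 153 and 177 fragments. It was low in every library and lowest in the library labelled shKSRP, at 4.55% of mock with an interval of 2.3% to 9%. In the BMP2 library it was 89.2% of mock (71.6% to 111%). It did not pass the filter and was not called, and the + 1 on the log2 scale holds its ratio to -0.70 in the library labelled shKSRP.

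Nrg1 encodes neuregulin 1 (chr8:32928500-33028675 in mm9, minus strand, 9 exons in the RefSeq transcript listed). It had 7.28 ± 0.42 FPKM in the library labelled shKSRP, 4.43 ± 0.19 FPKM in the BMP2 library and 6.78 ± 0.5 FPKM in mock. Against mock, the library labelled shKSRP had a log2 ratio of 0.09 ± 0.12 and the BMP2 library one of -0.52 ± 0.11. Neither was called. The value rests on 3 transcripts in the library labelled shKSRP, 4 in the BMP2 library and 6 in mock, and the RefSeq transcript is listed at 0 in the BMP2 library. Its scaled fragments, taken as FPKM times length in kb, summed to 40.2 in the library labelled shKSRP, 48.9 in the BMP2 library and 25.1 in mock, which is 1.6 and 1.95 times mock. Across the alternatives the BMP2 ratio to mock ran from -1.18 to 0.91, so no direction is given for Nrg1 in the BMP2 library.

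Of the receptors, Egfr had 5.01 ± 0.22 FPKM in the library labelled shKSRP, 3.14 ± 0.23 FPKM in the BMP2 library and 2.68 ± 0.21 FPKM in mock (chr11:16652206-16813910 in mm9, plus strand). The library labelled shKSRP was the highest, at 187% of mock with an interval of 171% to 205%, and the BMP2 library was at 118%. Against mock, the library labelled shKSRP had a log2 ratio of 0.71 ± 0.10 and the BMP2 library one of 0.17 ± 0.11, and neither was called.

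Egfr is listed as a full-length transcript of 28 exons (5965 nt) and a short one of 16 exons (2678 nt) that shares 15 exons exactly and ends in 1 of its own. The short form lacks the later exons of the full-length transcript, among them those of the intracellular part of the receptor. The full-length transcript had 5.01 ± 0.22 FPKM in the library labelled shKSRP, 2.42 ± 0.17 FPKM in the BMP2 library and 1.99 ± 0.15 FPKM in mock. The short one was listed at 0 in the library labelled shKSRP, and had 0.721 ± 0.16 FPKM in the BMP2 library and 0.686 ± 0.15 FPKM in mock. There it made 23% and 25.6% of Egfr FPKM. Taken from its top RefSeq transcript only, the Egfr log2 ratio of the library labelled shKSRP to mock reached 1.01 and would be called. With the trend over transcript length taken out, that ratio fell to 0.31.

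**Figure D2:**
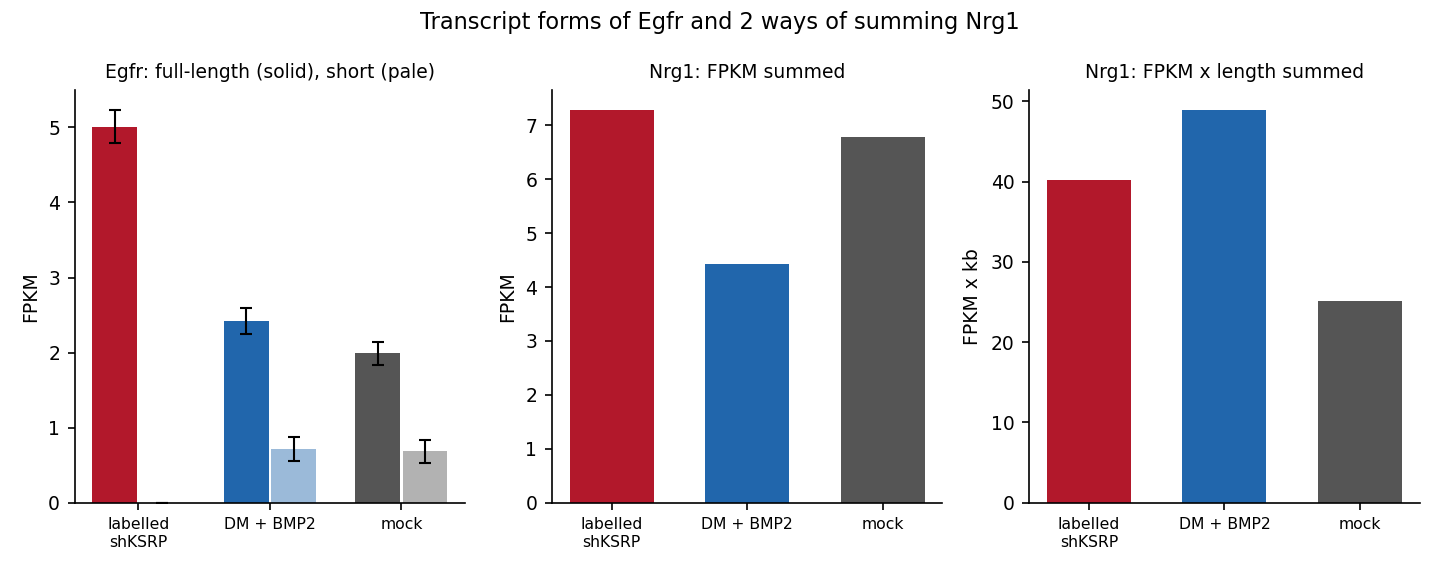
FPKM of the full-length (solid) and short (pale) Egfr transcripts with interval half-widths (left), summed FPKM of Nrg1 (middle) and its FPKM times length in kb (right) in the library labelled shKSRP, the BMP2 library and mock, all from 0. The BMP2 library is lowest for Nrg1 at 4.43 FPKM and highest at 48.9 FPKM times kb, and the short Egfr transcript is listed at 0 in the library labelled shKSRP.

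Erbb2, the receptor with no ligand of its own, had 11.7 ± 0.37 FPKM in the library labelled shKSRP, 10.8 ± 0.37 FPKM in the BMP2 library and 8.37 ± 0.32 FPKM in mock (chr11:98273798-98299030 in mm9, plus strand, 27 exons). Mock was lowest, and no intervals overlapped. Against mock, the library labelled shKSRP had a log2 ratio of 0.43 ± 0.07 and the BMP2 library one of 0.33 ± 0.07, neither of them called. With the trend over transcript length taken out, these ratios were 0.14 and 0.18. Erbb2 shares 9 exon bases with Mien1 on the opposite strand, which had 80.4, 85.1 and 89.2 FPKM.

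Erbb3, whose kinase is weak and which signals through its partner, had 0.0251 ± 0.019 FPKM in the library labelled shKSRP, 0.0974 ± 0.037 FPKM in the BMP2 library and 0.2 ± 0.046 FPKM in mock (chr10:128006424-128026557 in mm9, minus strand). It was near the floor throughout, from about 7, 27 and 73 fragments. Its RefSeq transcript is listed at 0 in the BMP2 library and mock, where the level came from an assembled transcript.

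**Figure D3:**
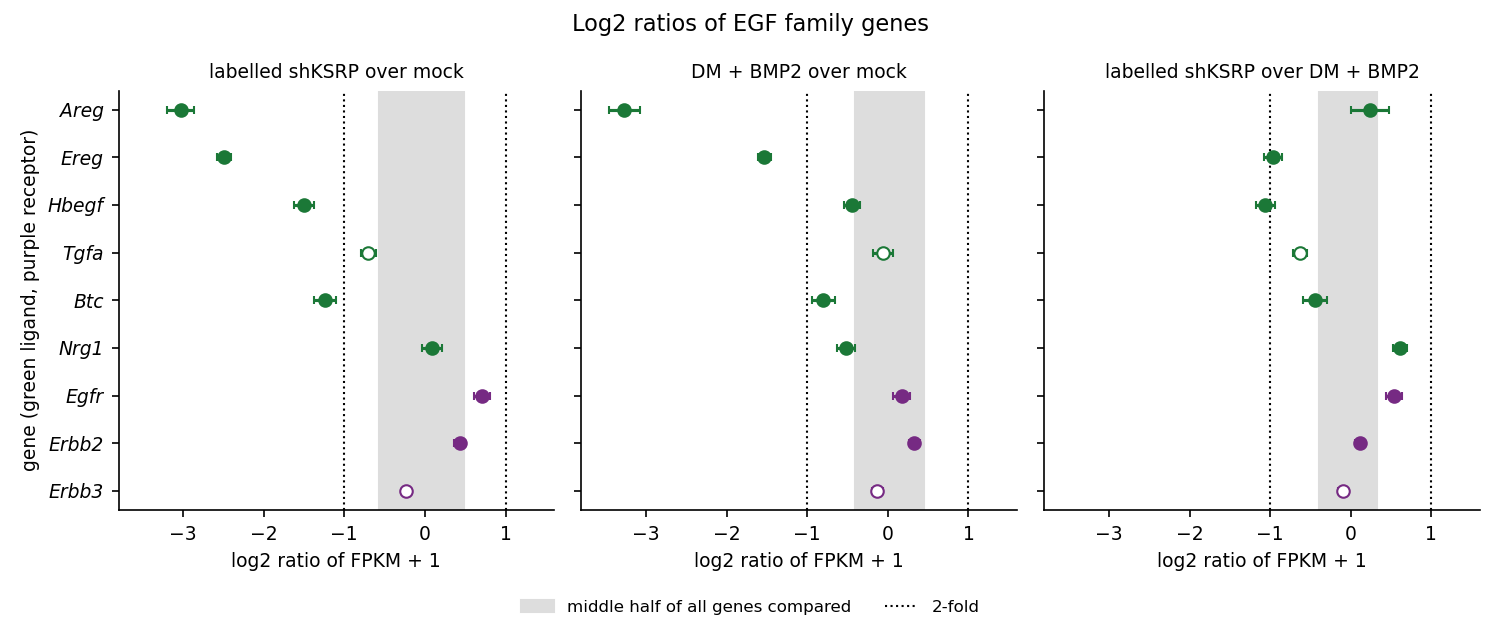
Log2 ratios of FPKM + 1 for the 9 genes in the library labelled shKSRP against mock, the BMP2 library against mock and the library labelled shKSRP against the BMP2 library, with bars for the combined half-widths. Green marks ligands, purple receptors, open circles the genes below 1 FPKM everywhere, and the grey band the middle 50% of all genes compared; Areg lies at -3.03 and -3.27 against mock.

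The summed level of the 6 ligands was 15.2 ± 0.63 FPKM in the library labelled shKSRP, 20.6 ± 0.69 FPKM in the BMP2 library and 59.7 ± 1.5 FPKM in mock. These sums are 25.5% of mock for the library labelled shKSRP and 34.5% for the BMP2 library. Nrg1 held 47.8% of the sum in the library labelled shKSRP and Hbegf 39.7% in the BMP2 library, while Areg held 37.5% in mock. These sums and shares depend on how the Nrg1 transcripts are summed. Its log2 ratio of the library labelled shKSRP to the BMP2 library ran from -0.27 to 2.15 across the alternatives. Without Nrg1, the 5 ligands of EGFR summed to 7.94 ± 0.48 FPKM in the library labelled shKSRP, 16.2 ± 0.66 FPKM in the BMP2 library and 52.9 ± 1.4 FPKM in mock. Per FPKM of Egfr, with both of its forms summed, this was 1.59, 5.16 and 19.8, a ratio of mRNA levels and not of proteins. It carries the trend over transcript length. With that trend taken out, the log2 ratio of the library labelled shKSRP to mock went from 0.71 to 0.31 for Egfr. It went from -3.03 to -2.36 for Areg and from -2.49 to -2.76 for Ereg. The 3 receptors summed to 16.7 ± 0.43 FPKM in the library labelled shKSRP, 14 ± 0.44 FPKM in the BMP2 library and 11.2 ± 0.39 FPKM in mock, with Erbb2 at 69.8%, 76.8% and 74.4% of the sum.

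**Figure D4:**
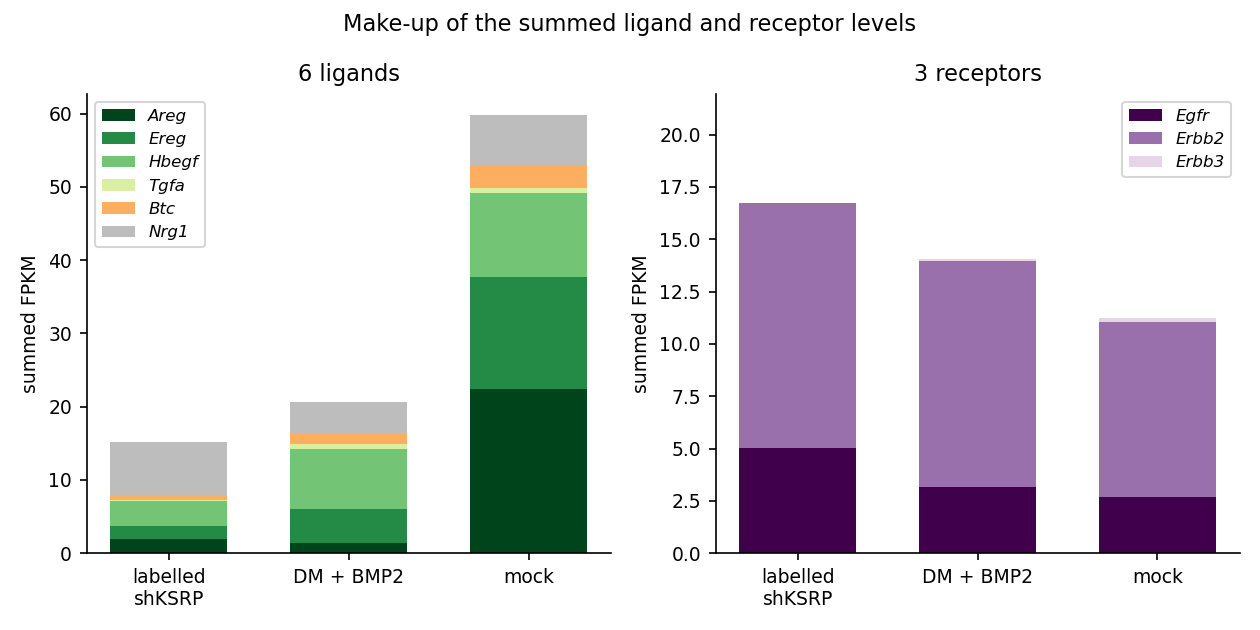
Summed FPKM of the 6 ligands (left) and the 3 receptors (right) in the library labelled shKSRP, the BMP2 library and mock, with each gene's part stacked from 0. The ligand sum is 15.2, 20.6 and 59.7 FPKM and the receptor sum 16.7, 14 and 11.2 FPKM.

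Areg and Ereg are among the 834 compared genes whose annotated 3′ UTR holds TTATTTATT. Of these 834, 10.2% were called lower and 11.9% higher in the library labelled shKSRP than in mock, with a median log2 ratio of 0.08, near the 12.9%, 11.0% and -0.02 of all genes. In the BMP2 library 7.19% were called lower and 9.47% higher, with a median of 0.14, beside 8.95%, 9.21% and 0.03 over all genes.

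The family's other genes were all below 1 FPKM and are in none of the sums above. Egf, its name-giving ligand, had 0.469 ± 0.15 FPKM in the library labelled shKSRP, 0.712 ± 0.2 FPKM in the BMP2 library and 0.785 ± 0.24 FPKM in mock. Epgn, Nrg2 and Nrg3 were below 0.1 FPKM throughout, and Nrg4 and Erbb4 were listed at 0 in every library.

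Of 18 ERK-responsive genes compared, 10 were called lower and 1 higher in the library labelled shKSRP than in mock, with a median log2 ratio of -1.15. All genes compared had a median of -0.02, with 12.9% called lower and 11.0% higher. In the BMP2 library 7 of the 18 were called lower and 0 higher, with a median of -0.72, against 0.03, 8.95% and 9.21% over all genes. The list was chosen with earlier results of these data known, so these counts are no independent check. Both lower counts include Fosl1, an AP-1 subunit, whose 99 ± 120 FPKM in mock has an interval that reaches 0, with 27.7 ± 0.95 FPKM in the library labelled shKSRP and 37.7 ± 1.2 FPKM in the BMP2 library. It was named after its values were seen. Phlda1, an immediate-early gene, had 12 ± 0.61 FPKM in the library labelled shKSRP, 45.8 ± 1.3 FPKM in the BMP2 library and 132 ± 4.2 FPKM in mock. Etv4, an ETS factor downstream of ERK, had 0.781 ± 0.17 FPKM in the library labelled shKSRP, 6.57 ± 0.53 FPKM in the BMP2 library and 17.4 ± 0.89 FPKM in mock. Dusp4, a phosphatase of ERK, had 5.7 ± 0.3 FPKM in the library labelled shKSRP, 8.2 ± 0.4 FPKM in the BMP2 library and 24.2 ± 0.57 FPKM in mock. These 3 had log2 ratios to mock of -3.36, -3.37 and -1.91 in the library labelled shKSRP, and of -1.51, -1.28 and -1.45 in the BMP2 library. In the BMP2 library Ccnd1, which encodes cyclin D1, and Myc had 51 ± 1.2 and 23.5 ± 0.96 FPKM, against 146 ± 1.6 and 66.7 ± 2.4 FPKM in mock (-1.5 and -1.47). Fosl2, an AP-1 subunit, was the gene called higher in the library labelled shKSRP, with 44.8 ± 0.72 FPKM there against 17.5 ± 0.53 FPKM in mock.

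Of 12 shedding genes compared, 2 were called higher and 1 lower in the library labelled shKSRP than in mock, and 2 higher and 0 lower in the BMP2 library. Over all genes 11.0% were called higher and 12.9% lower in the library labelled shKSRP, and 9.21% higher and 8.95% lower in the BMP2 library, so these counts are near the background. In each comparison 1 of the higher calls is Bace1, listed at 0 in mock. Adam12, a metalloprotease that can release HB-EGF, had 7.31 ± 0.32 FPKM in the library labelled shKSRP and 2.28 ± 0.14 FPKM in mock, a log2 ratio of 1.34. Adam10 had 43.4 FPKM in the BMP2 library and 20.7 FPKM in mock (1.03). Timp3, an inhibitor of ADAM17, had 14.7 ± 0.42 FPKM in the library labelled shKSRP, 118 ± 1.5 FPKM in the BMP2 library and 68.3 ± 0.96 FPKM in mock, with log2 ratios to mock of -2.14 for the library labelled shKSRP and 0.78 for the BMP2 library. Bace1, a protease of neuregulin precursors, had 28.2 FPKM in the library labelled shKSRP, 13.4 FPKM in the BMP2 one and was listed at 0 in mock, so no fold is given.

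Of 23 receptor-proximal signalling genes, 5 were called higher and 2 lower in the library labelled shKSRP than in mock, and 1 higher and 1 lower in the BMP2 library. The shares over all genes were 11.0% higher and 12.9% lower in the library labelled shKSRP, and 9.21% higher and 8.95% lower in the BMP2 library. In each comparison 1 call rests on Braf, listed at 0 in mock. Plcg1, a phospholipase recruited to EGFR, had 28.8 FPKM in the library labelled shKSRP and 6.16 FPKM in mock (log2 ratio 2.06). Pik3r1, the regulatory subunit of PI3 kinase, had 23.9 FPKM in the library labelled shKSRP and 7.8 FPKM in mock (1.5). Hras, a RAS GTPase, had 40.7 FPKM in the library labelled shKSRP, 37.8 FPKM in the BMP2 library and 84.4 FPKM in mock (-1.04 and -1.14). Map2k2, which encodes an ERK kinase, had 33.1 FPKM in the library labelled shKSRP and 72.6 FPKM in mock (-1.11).

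Of 21 receptor restraint and turnover genes compared, 1 was called lower and 0 higher in the library labelled shKSRP than in mock, and 2 lower and 1 higher in the BMP2 library. These counts are near or below the shares over all genes, which were 12.9% lower and 11.0% higher in the library labelled shKSRP, and 8.95% lower and 9.21% higher in the BMP2 library. Errfi1, an EGFR inhibitor, had 8.76 ± 0.5 FPKM in the library labelled shKSRP, 14.7 ± 0.7 FPKM in the BMP2 library and 21.4 ± 0.83 FPKM in mock (log2 ratios -1.20 and -0.52). Cbl, a ubiquitin ligase of EGFR, had 1.47 FPKM in the BMP2 library and 4.13 FPKM in mock (-1.06). Lrig1, another receptor inhibitor, had 0.733 FPKM in the BMP2 library and 2.78 FPKM in mock (-1.13). Usp8, a deubiquitinase of sorted receptors, had 42.7 FPKM in the BMP2 library and 14.8 FPKM in mock (1.46).

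**Figure D5:**
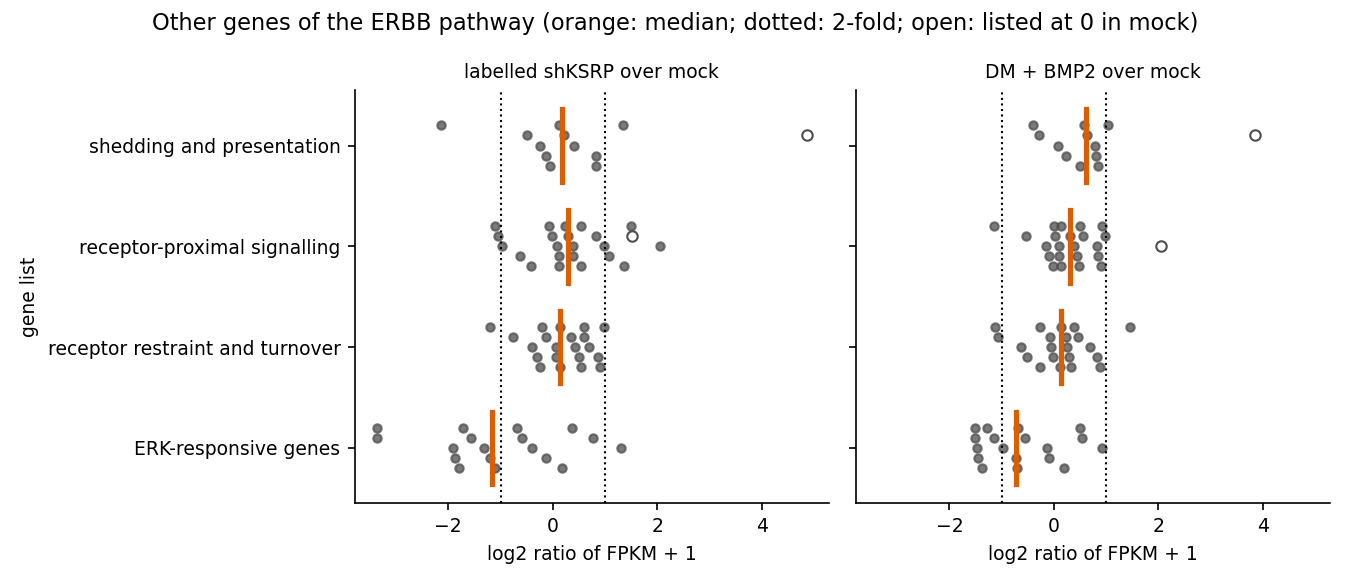
Log2 ratios of FPKM + 1 for the compared genes of the 4 lists in the library labelled shKSRP against mock and the BMP2 library against mock, 1 point per gene, open where the gene is listed at 0 in mock. Orange bars are list medians, which for the ERK-responsive genes are -1.15 and -0.72.

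Genes were ranked by the distance between their log2 values over the 3 libraries, each centred on its own mean, among 2745 candidates with a range of at least 1. Nearest to Areg were Srr (distance 0.209) and Lockd (0.303). Cdk1 (0.077) and Gins2 (0.117) were nearest to Ereg, Tmem33 (0.023) and Id1 (0.029) to Hbegf, and Snx7 (0.008) and Dock8 (0.01) to Btc. Among the receptors, Hdac4 (0.207) and Npepps (0.212) were nearest to Egfr, whose own range of 0.71 is below that minimum. With 3 libraries, a small distance describes the order and spacing of 3 log2 values of FPKM + 1. With the added 1 FPKM, genes with unlike folds can lie close. Dock8 had 0.101 FPKM in the library labelled shKSRP, 0.509 FPKM in the BMP2 library and 1.6 FPKM in mock. Snx7 had 32.4, 44.7 and 78.3 FPKM in the same order.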

How the data were processed

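The authors deposited, per the file headers and attributes, a Cufflinks transcript file for each of 3 libraries, with FPKM and 95% interval bounds. A deposited score column was not used. Tools listed in the submitters' processing notes are Cufflinks 1.3.0, TopHat 1.4.1, Bowtie 0.12.7 and CASAVA 1.8, with the mm9 build. The sources used here give neither their settings nor whether strand was marked. A gene's FPKM was the sum over its RefSeq transcripts and the assembled transcripts of its locus. Where several genes shared a locus, exon overlap decided which gene took an assembled transcript. Of 28222 RefSeq accessions, 27563 were named from the RefSeq table of build GRCm38.p6. Of the 11462 genes compared, 1709 shared a locus with another gene, so their fragments may be split wrongly. No fold is printed against a value listed at 0. The 762 genes with such a value kept their ratio of FPKM + 1 in the counts of calls.

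Ratios used a pseudocount of 1 FPKM. Genes were compared at 1 FPKM or more in at least 1 library with a transcript of 300 nt or more. No test was possible with 1 library per group, so calls use the 2-fold rule. Depth was inferred from interval widths of single-transcript loci of at least 2000 nt and 5 FPKM. Only the comparison and calling of genes were checked on simulated data, made from mock gene levels with interval error and no spread between cultures. The naming and summing of transcripts were not checked in this way. From each pathway list the genes named are those called against mock, at most 3 in each direction and comparison. The members and gene lists were chosen with earlier results of these data known. Nrdc and Cd68 did not match. Python 3.11.15, numpy 2.4.6, pandas 2.3.3 and matplotlib 3.10.9 were used.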

Additional observations from a re-analysis of the deposited data

How the results depend on the processing

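No paired analysis was possible because each group holds 1 library, and for the same reason no library could be left out. Over 12 alternatives, 28 of the 36 counts of called genes were within 1.5 times the reported count. The count for the library labelled shKSRP against mock was 2 at a pseudocount of 5 FPKM. Against the BMP2 library, where 1 gene was called, it was 2 at a pseudocount of 0.1 FPKM, with RefSeq transcripts alone, with only the top RefSeq transcript of each gene, or with assembled transcripts restricted by exon overlap, 0 at a pseudocount of 5 FPKM or after upper-quartile rescaling, and 3 at 1.5-fold. For the BMP2 library against mock, where 2 genes were called, the count rose to 3 under several alternatives. Btc was added as lower at a pseudocount of 0.1 FPKM and at 1.5-fold. Nrg1 was added as lower with RefSeq transcripts alone, with only the top RefSeq transcript, or with the exon overlap restriction. Upper-quartile rescaling moved the median of all genes for the library labelled shKSRP against mock by 0.11. Against mock, Areg ran from -3.51 to -1.99 in the library labelled shKSRP and from -3.88 to -2.09 in the BMP2 library. Ereg ran from -2.95 to -1.56 and from -1.70 to -1.07. Hbegf (-1.72 to -0.97) and Btc (-1.93 to -0.50) in the library labelled shKSRP each missed the 2-fold rule under 1 alternative. In that library Egfr ran from 0.31 to 1.01 and Erbb2 from 0.14 to 0.56, each lowest with the length trend taken out. The cause of these movements was not tested. Tgfa and Erbb3 stayed under the filter wherever one was set, and the precision of Erbb3 is limited by its 7 to 73 estimated fragments. With no filter, 4 of 9 genes were called in the library labelled shKSRP against mock, beside 12.5% of all genes. Neither Tgfa nor Erbb3 was called there.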
